A study of Mus musculus with 2 samples.

Results

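The genes described here write, copy, remove and read cytosine methylation in DNA: the methyltransferases Dnmt1, Dnmt3a and Dnmt3b, the dioxygenases Tet1, Tet2 and Tet3, the methylation-linked adaptors Uhrf1 and Uhrf2, and the methyl-CpG reader Mbd2. They were followed in KLS cells, a bone marrow fraction of mouse stem and progenitor cells that is lineage-negative and carries c-kit and Sca. Members were all probe sets that the platform annotation assigned to these 9 genes, which gave 23 of the 45101 probe sets and 9 of 18193 genes. No probe set annotated to several genes included a member. Total RNA, 25 ng per sample, was hybridised to 2 Affymetrix arrays: 1 held cells of wild type mice and the other those of TIF1γ Δ/Δ mice, in which the gene for TIF1γ (Trim33), a transcriptional regulator of the TRIM family, had been conditionally inactivated. What drove the inactivation, how old the mice were and whether several were pooled is information not given in the sources used here. With 1 array per genotype there was no replicate and no test, and each difference below compares these 2 arrays.

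Dnmt3a and Dnmt3b place methyl groups on unmethylated CpG sites and are called de novo enzymes. Dnmt1 copies the pattern onto the new strand after replication, and Uhrf1 brings it to hemimethylated sites there. The TET enzymes oxidise 5-methylcytosine, which opens the way to its removal, and Mbd2 binds methylated CpG as part of a repressor complex. In blood, DNMT3A and TET2 are among the genes most often mutated in human clonal haematopoiesis and myeloid leukaemia, and in mice the loss of either alters stem cell self-renewal.

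Promoter windows are shown for Uhrf1 and Tet2, which differed most in each direction, and for Dnmt1, the partner of Uhrf1; of genes with several starts, the window shown was chosen because it held a match. RefSeq windows on GRCm38.p6, running from 250 bases before to 50 after a gene start, were held for 8 members (13 windows), and Mbd2 is named only. They were searched on both strands for the letters TTTCCCGC, TTTCGCGC, TTTGCCGC and TTTGGCGC, the form bound by the cell cycle factors of the E2F family. A match was found in 1 window of Uhrf1 and 1 of Dnmt1, and in no other member window, while 2.26% of all 32851 windows held one. Each of these strings contains CpG, and the matching windows held 33 CpG each against a median of 7. The 2.26% is therefore not the share among windows of like CpG content, which was not computed. The matches in the 2 windows below are in capitals and do not overlap. In Uhrf1 the match lay 185 bases before the downstream one of its 2 starts held here (chr17:56304063-56304362, plus strand). In Dnmt1 they lay 219 bases before and 34 after the most downstream of its 3 starts (chr9:20952574-20952873, minus strand). Their positions relative to the other starts differ. In the window of Tet2 (chr3:133544341-133544640, minus strand) the capitals mark a 10-base run that occurred 5 times at a spacing of 42 bases. No other of the 32851 windows held 3 or more copies of it, but the run was picked from the Tet2 window itself, which favours such a count. A match of letters describes these windows and shows no binding.
Uhrf1: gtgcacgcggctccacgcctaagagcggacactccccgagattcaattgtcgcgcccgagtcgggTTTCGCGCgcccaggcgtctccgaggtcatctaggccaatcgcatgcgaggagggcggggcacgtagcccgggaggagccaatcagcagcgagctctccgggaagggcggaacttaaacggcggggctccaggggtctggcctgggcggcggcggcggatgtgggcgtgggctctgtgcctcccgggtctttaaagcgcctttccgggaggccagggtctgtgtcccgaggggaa
Dnmt1: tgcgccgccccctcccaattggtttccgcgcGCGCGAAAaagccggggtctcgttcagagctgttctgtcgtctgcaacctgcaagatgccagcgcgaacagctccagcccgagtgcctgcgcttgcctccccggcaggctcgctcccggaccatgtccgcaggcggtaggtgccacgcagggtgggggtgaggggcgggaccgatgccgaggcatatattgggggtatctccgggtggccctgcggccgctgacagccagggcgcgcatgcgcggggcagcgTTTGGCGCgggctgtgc
Tet2: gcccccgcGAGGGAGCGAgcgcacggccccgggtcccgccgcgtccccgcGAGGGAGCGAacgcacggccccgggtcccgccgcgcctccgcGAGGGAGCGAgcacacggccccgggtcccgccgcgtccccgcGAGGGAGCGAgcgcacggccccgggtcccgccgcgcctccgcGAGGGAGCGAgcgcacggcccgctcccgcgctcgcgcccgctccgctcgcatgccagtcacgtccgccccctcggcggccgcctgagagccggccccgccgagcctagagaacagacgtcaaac

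The Tet2 window held 57 CpG, more than 99.8% of all windows. The Uhrf1 and Dnmt1 windows shown held 33 each, and the Dnmt3b window 30, against a median of 7 over all windows. The 2 windows at the upstream start of Dnmt3a held 46 and 47. Another Dnmt1 window had only 2 CpG, so the members' starts were not uniformly rich.

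Of the 9 genes, 8 were measured, meaning that their brightest probe set reached the median signal of the array, 14.4 (wild type) or 11.7 (TIF1γ Δ/Δ). Uhrf1, Uhrf2 and Dnmt3b were at least 2-fold higher (3 of 8), against 2.53% of all 11724 genes measured on at least 1 array. Tet2 was at least 2-fold lower (1 of 8), against 6.01% of all genes. Differences are log2 intensity on the TIF1γ Δ/Δ minus the wild type array, centred on the median probe set, and a gene stands for its brightest probe set. The median over the 8 genes was 0.68, against 0.00023 over all genes, and 6 of the 8 were positive against 5865 of the 11724.

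**Figure D1:**
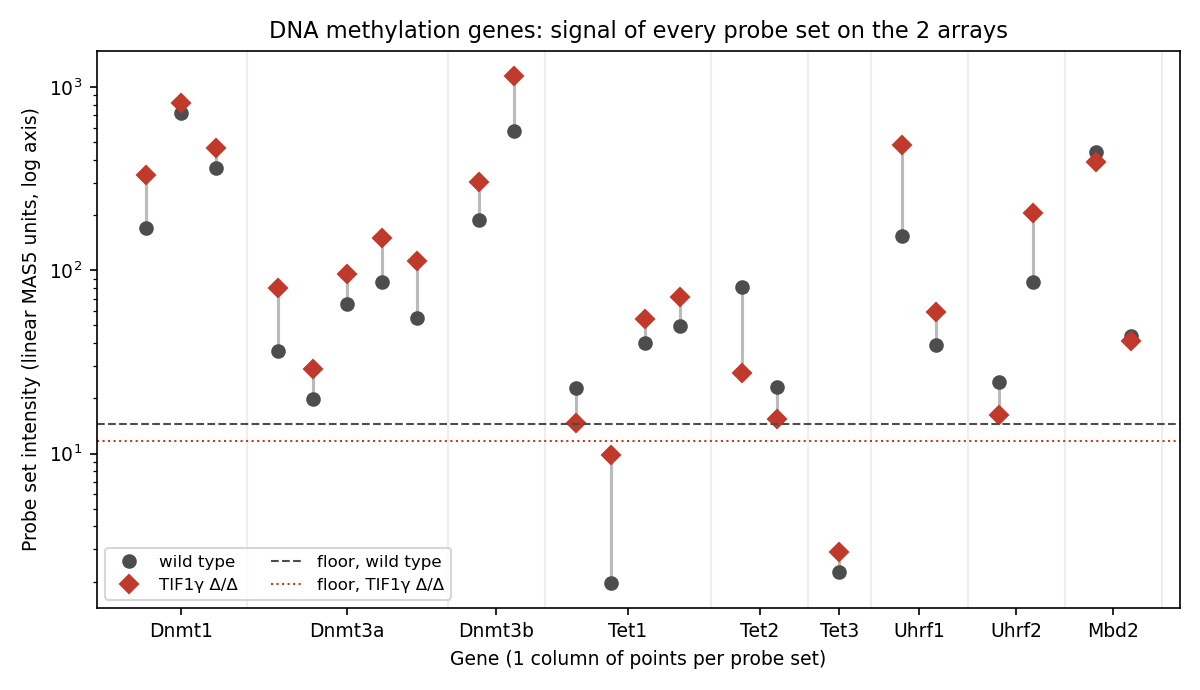
Intensity of all 23 probe sets of the 9 genes (linear MAS5 units, log axis) on the wild type array (circles) and the TIF1γ Δ/Δ array (diamonds), with 1 column per probe set and horizontal lines at the floor of each array. All 5 Dnmt3a probe sets are higher on the TIF1γ Δ/Δ array, both Tet2 probe sets are lower, and the 2 Uhrf2 probe sets go opposite ways.

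The 2 samples also differed in their content of mature cell transcripts. Every measured neutrophil and macrophage marker, 19 in all, was more than 2-fold lower in the TIF1γ Δ/Δ sample, their summed intensity was 39423 and 731, and 19 reached the floor in the wild type sample against 6 in the other. Of 9 measured erythroid markers 6 were at least 2-fold lower (summed intensity 6361 and 3109), as were 5 of 10 lymphoid markers (2141 and 1362). All 12 KLS and stem cell markers with a probe set reached the floor on both arrays, with 9 positive and 3 negative differences, a median of 0.23, and 2 of them, Gata2 and Tek, at least 2-fold higher. The call of Gata2 rests on 1 of its 2 probe sets, since the other gave 0.16. Tek had 1 probe set, with a wild type signal of 20.1 against a floor of 14.4. Of the genes for the sort markers, Kit gave 384 and 495 (log2 0.39) in its brighter probe set. The other Kit probe set gave a log2 difference of 1.14, past 2-fold. Ly6a, which encodes Sca, had no probe set of its own. Fewer cells of a type and less RNA per cell cannot be told apart in such samples, and the part of these markers in the differences of the methylation genes was not tested. Trim33, the inactivated gene, gave 379 and 172 (log2 -1.12) in its brightest probe set, but its place relative to the deleted part is information not given in the sources used here.

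Maintenance methylation showed its largest difference in Uhrf1, the adaptor that reads hemimethylated DNA. Its brighter probe set, 1415810_at, went from 154 (wild type) to 481 (TIF1γ Δ/Δ), which is 1.66 on the log2 scale or 3.17-fold. This placed Uhrf1 at rank 22 from the top of 11724 genes. The second Uhrf1 probe set, 1415811_at, gave 39.0 and 59.1 (log2 0.62). Both pointed the same way, but by amounts 1.04 apart, although the annotation gives them the same representative sequence.

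Dnmt1, the enzyme that Uhrf1 recruits, was also higher in each of its 3 probe sets, by amounts that depended on the probe set. The brightest, 1435122_x_at, gave 717 and 816 (log2 0.21). The second, 1447877_x_at, gave 359 and 464 (log2 0.39). The suffix x marks probe sets with probes that resemble other sequences. The third, 1422946_a_at, has no such suffix and gave 171 and 332 (log2 0.99), just under 2-fold. All 3 probe sets of a gene were positive in 27.3% of the 1097 genes with 3 probe sets measured on both arrays, so the shared direction is common.

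Uhrf2, a paralogue of Uhrf1 that also binds modified cytosine, was the member whose probe sets disagreed most. Signal of 1454920_at was 86.4 and 204, a log2 difference of 1.27 or 2.41-fold, at rank 102 from the top. The other, 1447217_at, gave 24.4 and 16.3 (log2 -0.56), near the floor of both arrays. The gap between them was 1.83, and only 1.09% of 2753 genes with 2 such probe sets had one as wide. The Uhrf2 call therefore rests on 1 probe set, and the mean of both was 0.35, under 2-fold.

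The de novo methyltransferases were both higher. Dnmt3b gave 576 and 1146 in 1449052_a_at, a log2 difference of 1.02 or 2.02-fold. Its other probe set, 1418351_a_at, gave 189 and 304 (log2 0.71), so both were higher and 1 of 2 passed 2-fold. Dnmt3b lay at rank 279 from the top and close to the 2-fold line, and it lay just under it without centring, with quantile or loess scaling, with a higher floor and with its probe sets averaged.

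Dnmt3a had 5 probe sets, and every one was higher on the TIF1γ Δ/Δ array. The brightest, 1423066_at, gave 86.5 and 150 (log2 0.82, 1.76-fold), at rank 648 from the top. Past 2-fold lay 1423063_at (36.3 and 80.3, log2 1.17) and 1460324_at (54.9 and 112, log2 1.05). These 5 were not independent measurements, since the annotation ties all of them to 1 representative sequence. The remaining probe sets were 1423065_at (65.8 and 95.3, log2 0.56) and 1423064_at (19.9 and 29.1, log2 0.57). Of 153 genes with 5 probe sets measured on both arrays, 16.3% had all 5 positive. Dnmt3a was the only 1 of them in which none lay below 0.56, a bound taken from Dnmt3a itself after its values were seen.

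**Figure D2:**
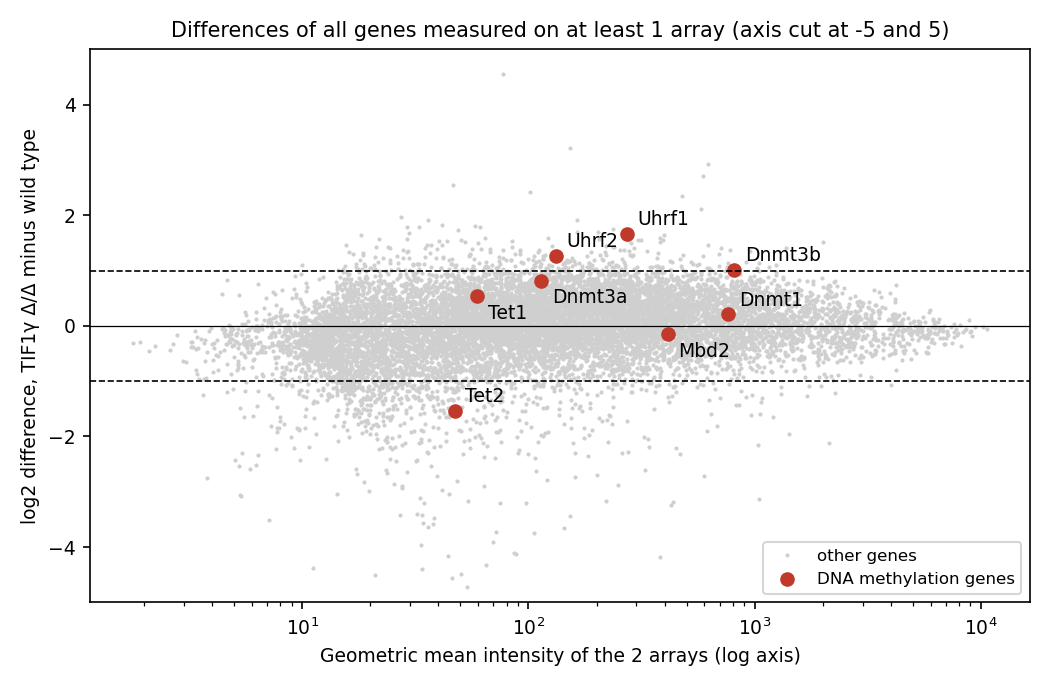
Log2 difference (TIF1γ Δ/Δ minus wild type) of each gene measured on at least 1 array against its geometric mean intensity on a log axis, with the 8 measured DNA methylation genes in red and dashed lines at 2-fold. The axis is cut, which leaves out 15 genes below -5; Uhrf1, Uhrf2 and Dnmt3b lie on or above the upper line and Tet2 lies below the lower one.

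Among the dioxygenases, Tet2 differed in the opposite direction to the writers. Its brighter probe set, 1438781_at, went from 80.8 (wild type) to 27.5 (TIF1γ Δ/Δ), which is -1.53 on the log2 scale or 2.89-fold lower. The second, 1455300_at, gave 23.2 and 15.4 (log2 -0.56), near the floor of both arrays. Tet2 stood at rank 282 from the bottom. When all genes were split into 3 equal classes by mean signal, Tet2 fell in the dimmest (under 53.2), where 11.4% of genes were past 2-fold in that direction, against 4.53% in the middle and 2.07% in the brightest class. In the opposite direction the shares were 2.15% in the dimmest, 3.35% in the middle class, which held Uhrf2, and 2.10% in the brightest, which held Uhrf1 and Dnmt3b. The classes used the mean of both arrays, so a low value on the TIF1γ Δ/Δ array itself moves a gene towards the dimmest class. Tet2 was at 80.8 in the wild type sample, above the edge of 53.2. The 11.4% is therefore not an independent rate for genes like Tet2.

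Tet1 gave small values of mixed sign. The brightest probe set, 1455425_at, gave 49.7 and 71.1 (log2 0.54), and 1429448_s_at gave 40.1 and 54.4 (log2 0.46). By contrast, 1419896_at gave 22.7 and 14.8 (log2 -0.60), while 1419897_at (1.98 and 9.79) reached neither floor. No Tet1 probe set passed 2-fold. Tet3 had a single probe set, 1439324_at, at 2.25 and 2.90, which is below both floors, so no difference can be given for it.

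Mbd2 was the member with the smallest difference. Its signal was 440 and 388 in 1417165_at (log2 -0.16) and 43.6 and 41.2 in 1425803_a_at (log2 -0.057). Its 2 probe sets were within 0.098 of each other, although one was far brighter.

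Counted by probe set, 21 of the 23 were measured, 15 of them positive and 6 negative. At least 2-fold higher were 5, namely 1 each of Uhrf1, Uhrf2 and Dnmt3b and 2 of Dnmt3a, against 2.59% of 24593 measured probe sets. At least 2-fold lower was 1, of Tet2, against 7.20%. In 6 of the 8 measured genes all measured probe sets had the same sign, and Tet1 and Uhrf2 were the exceptions. Over all genes the signs matched in 65.5% of those with 2 probe sets measured on both arrays and in 45.7% of those with 3. For genes with 5, as Dnmt3a has, the share was 26.1%. Matching signs were thus frequent in general, and 6 of 8 is not read as a trait of the members. Over 4534 genes with several probe sets measured on both arrays, the SD between probe sets of a gene was 0.452, which describes disagreement of probe sets and not of mice.

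Partners, further erasers and readers, and the metabolism that feeds them were described from 4 lists of 76 genes, of which 61 were measured. Most had more signal in the TIF1γ Δ/Δ sample: 45 were positive and 16 negative, with a median of 0.40. At least 2-fold higher were 3 of 61, against 2.53% of all genes, and none was at least 2-fold lower, against 6.01%. The other positive values were under 2-fold, but at 1.5-fold 21 genes were higher and 5 lower. At or above 0.5 lay 57.1% of the methyltransferase partners, 23.5% of the demethylation genes, 47.4% of the readers and 45.5% of the metabolic genes. Over all genes this share was 17.4%.

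Of the partners and relatives of the methyltransferases, 10 of 14 measured were positive, none was 2-fold apart, and the median was 0.59. The brightest were Pcna, the replication clamp that holds Dnmt1 at the fork (3342 and 3215, log2 -0.032), and Trim28, the corepressor that keeps imprints methylated (2016 and 2631, log2 0.41). Hells, the remodeller needed for methylation of repeats, gave 638 and 1023 (log2 0.70, 3 of 3 probe sets positive). Lig1, the ligase whose methylated form binds Uhrf1, gave 400 and 717 (log2 0.87). Trdmt1, formerly called Dnmt2 and now known to methylate transfer RNA, went the other way in its brighter probe set (245 and 151, log2 -0.67). Its second probe set was slightly positive (log2 0.11). Hells, Lig1 and Trdmt1 were chosen after their values were seen.

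In active demethylation and base excision repair, 13 of 17 measured genes were positive and the median was 0.25. Lig3, the ligase that closes repaired gaps, was at least 2-fold higher in its brightest probe set (62.8 and 137, log2 1.15), with 3 of 4 measured probe sets positive and the call kept in 7 of 10 alternative settings. The brightest genes of the list were the abasic endonuclease Apex1 (3005 and 3271, log2 0.15) and the polymerase subunit Pold3 (868 and 983, log2 0.20). All 3 Gadd45 genes, stress proteins that have been linked to demethylation and were chosen after their values were seen, were lower. Gadd45a gave 35.5 and 22.1 (log2 -0.66), Gadd45b gave 108 and 68.6 (log2 -0.63) and Gadd45g gave 32.9 and 17.0 (log2 -0.93). None reached 2-fold, and their signs were the same under every scaling tried.

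Other readers of methylated or unmethylated CpG and their complexes had 13 of 19 positive values and a median of 0.44. Gatad2a, a subunit of the NuRD complex that carries Mbd2 or Mbd3, gave 206 and 412 (log2 1.02), with 4 of 5 probe sets positive and the call kept in 2 of 10 settings. The brightest were the histone-binding subunits Rbbp7 (6310 and 6200, log2 -0.0014) and Rbbp4 (5320 and 5336, log2 0.028). The other probe sets of Gatad2a reached down to a log2 difference of -0.76.

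For methyl donor and 2-oxoglutarate metabolism, 9 of 11 genes were positive and the median was 0.35. Mtr, the methionine synthase, gave 120 and 237 (log2 1.01, 2 of 2 probe sets positive), a call kept in 4 of 10 settings. The brightest were Ahcy, which clears the by-product of methylation (1528 and 1845, log2 0.30), and the folate enzyme Mthfd1 (749 and 1471). The last lay just under 2-fold and only 2 of its 3 probe sets were positive.

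Since Dnmt1 and Uhrf1 are known to be made mainly in S phase, DNA replication genes were set beside them. Of 23 measured, 16 were positive and 7 negative, and the median was 0.28. Only Pola1, the catalytic subunit of the priming polymerase, was at least 2-fold higher (210 and 529, log2 1.36, from 1 measured probe set). It was at -0.31 with the mean of all its probe sets, which takes in one under the floor on both arrays. The brightest, the helicase subunits Mcm7 (4385 and 4626, log2 0.10) and Mcm5 (3231 and 3860, log2 0.28), lay closer to 0. The brighter Uhrf1 probe set (1.66) exceeded each of the 23, but its second (0.62) lay below several of them, among them Pola1 and Pole (0.96). The brightest Dnmt1 probe set (0.21) was below the list median and its other 2 (0.39 and 0.99) above it. With the mean of all probe sets the order turned, with Dnmt1 at 0.53 and the list median at 0.054. That mean also takes in probe sets under the floor. With the median of measured probe sets the 2 values lay closer together, at 0.39 and 0.32.

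**Figure D3:**
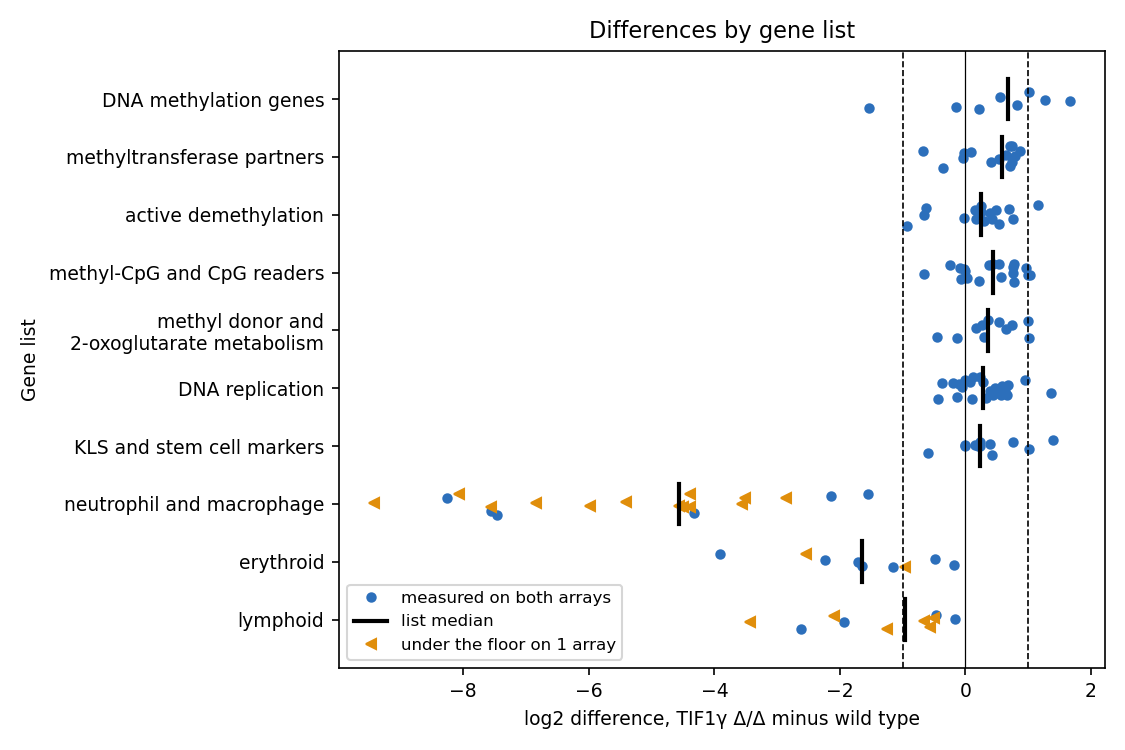
Log2 difference (TIF1γ Δ/Δ minus wild type) of each measured gene in 10 lists, with points for genes measured on both arrays, triangles for genes under the floor on 1 array, thick bars at the list medians and dashed lines at 2-fold. The medians of the DNA methylation genes (0.68) and the related lists lie above 0, and that of the neutrophil and macrophage markers lies at -4.57.

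The signs of the 8 measured genes were the same in all the alternative settings that gave them a value. Over these, Uhrf1 ranged from 1.14 to 1.76, Tet2 from -1.55 to -1.05 and Dnmt3a from 0.71 to 0.91. Uhrf1 and Tet2 passed 2-fold in all 10 settings that kept this threshold, Uhrf2 in 8 of 10 and Dnmt3b in 3 of 9. At 3-fold Uhrf1 alone remained, with no member lower.

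**Figure D4:**
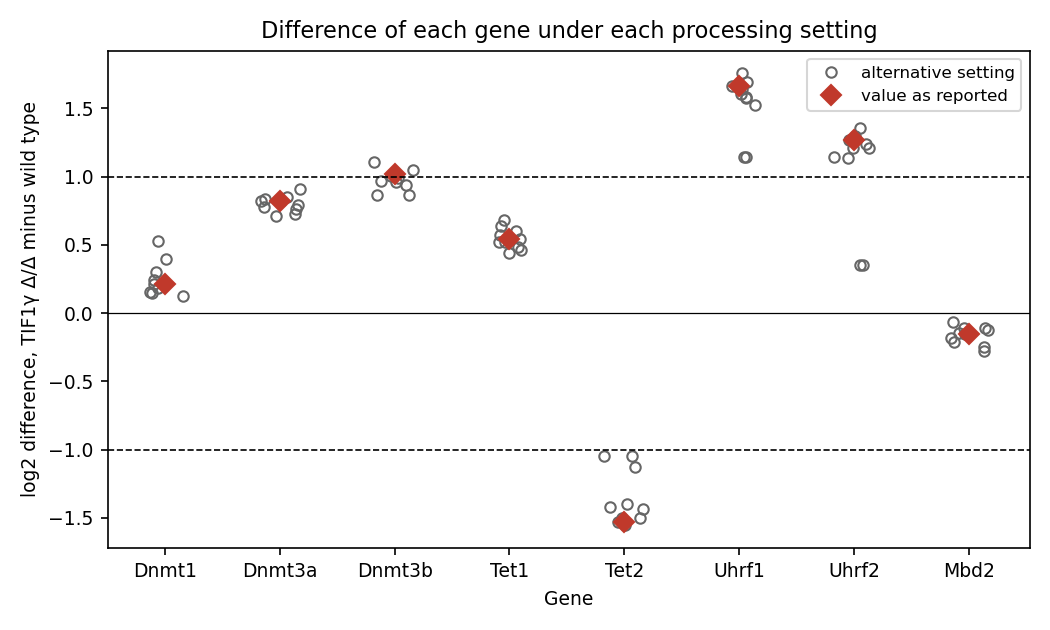
Log2 difference (TIF1γ Δ/Δ minus wild type) of each measured gene as reported (diamonds) and under each alternative setting of scaling, floor, pseudocount and probe set rule (circles), with dashed lines at 2-fold. Circles for Uhrf1 stay above the upper line and those for Tet2 below the lower one. Those for Dnmt3b lie on both sides of the upper line, and 2 for Uhrf2 lie at 0.35.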

How the data were processed

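Total RNA of KLS cells was measured on 2 arrays, 1 per genotype, grouped by the genotype label. The deposited values are linear probe set intensities for which the submitters' processing notes name MAS5; its version and any filters were not given in the sources used here. The mean after trimming 2% at each end was 100.001 on both arrays, so the deposited intensity had been scaled by array. The arrays' number limits precision, and MAS5 makes low values noisy.

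From these values, 64 control probe sets were left out. Symbols were updated by Entrez identifier to RefSeq (GRCm38.p6), which held 34741 of 34945 single-gene probe sets. The log2 difference was centred on the median of probe sets measured on both arrays (-0.024). A probe set was measured at or above the array's 50th percentile, and a value under this floor on 1 array was set to it. Each gene took the value of its brightest probe set (mean log2 signal of both arrays) and was called at 2-fold. Members and lists were chosen with earlier results of these data known. Named were all members, up to 6 genes of each related list past 2-fold and its 2 brightest; others are marked. With 2 arrays, likeness of pattern between genes was not scored. Code was tested on simulated data. Alternatives covered scaling, floor, probe set rule, pseudocount and fold. Python 3.11.15, numpy 2.4.6, pandas 2.3.3, statsmodels 0.14.6 and matplotlib 3.10.9 were used.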

Additional observations from a re-analysis of the deposited data

How the results depend on the processing

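No paired analysis was possible because each genotype had 1 array. Leaving out an array was likewise not possible. Across the alternatives, the median of the members stayed between 0.43 and 0.71. The 3 members at least 2-fold higher became 1 with the mean of all probe sets, with the median of measured probe sets (chosen after seeing the data) and at 3-fold, and the 1 lower member became 0 at 3-fold. The 6 member probe sets at least 2-fold apart became 11 at 1.5-fold and 1 at 3-fold. Related genes at least 2-fold higher, 3 as reported, numbered 1 without centring, with quantile or loess scaling and with the floor at the 65th percentile. They numbered 5 with the floor at the 40th percentile, 6 with no floor, 0 with a pseudocount of 16, 0 with the median of measured probe sets, 21 at 1.5-fold and 0 at 3-fold. Those at least 2-fold lower went from 0 to 2 with no floor and 5 at 1.5-fold. Replication genes at least 2-fold higher went from 1 to 2 with no floor or the mean of all probe sets, 5 at 1.5-fold and 0 at 3-fold. The causes were not tested. Only 1 array per genotype and the dim signal of Tet1, Tet3 and the second probe sets of Tet2 and Uhrf2 limit what can be read.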

Other observations

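Both lists below were added after the values of the methylation genes had been seen, and both rest on 1 array per genotype. Imprinted genes, whose parental expression depends on DNA methylation, had 12 of 28 members measured on both arrays. Of these 12, 10 were negative and 2 positive, and the median was -0.56. At least 2-fold lower were 3 and none was higher, against 6.01% and 2.53% of all genes measured on at least 1 array. With 4 more that reached the floor on 1 array the median was -0.34, against 0.00023 over all genes. Igf2, Mest and Mcts2 among them reached it only on the TIF1γ Δ/Δ array, whose floor was lower (11.7 against 14.4). The floor rule therefore gave Igf2 a difference of -0.047, although its signal was 5.52 (wild type) and 13.7 (TIF1γ Δ/Δ). The 3 were Igf2r, the receptor that clears insulin-like growth factor (37.1 and 14.5, log2 -1.34), Phlda2, a growth regulator of the placenta (51.3 and 24.0, log2 -1.07), and Impact, an inhibitor of the kinase Gcn2 (380 and 183, log2 -1.03). The call of Impact rests on 1 probe set, since its other measured one gave -0.26. Gnas, the brightest, gave 1833 and 2164 (log2 0.26). Several lay near the floor, but Impact (380 and 183) was not among the dimmest genes. In the dimmest of 3 equal signal classes 11.4% of genes were past 2-fold lower. Low values on the TIF1γ Δ/Δ array themselves help to place genes in that class. Germline genes, which are kept silent in body cells by promoter methylation, were mostly under the floor: 13 of 19 on both arrays, including Dazl, Sycp3 and Mael. Of all 18193 genes, 11724 reached the floor on at least 1 array, against 6 of these 19. Ddx4, an RNA helicase of germ cells, was the only one well above it (255 and 171, log2 -0.55), and none was 2-fold apart. Only Ddx4 was measured on both arrays, and setting low values to the floor shrinks the differences of the others.

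The CpG content of promoter windows went with the difference over 8475 of the 10365 genes measured on both arrays; the other 1890 had no window here. Genes were split into 3 classes by the CpG count of their richest window. Those with the fewest (0 to 18) had a median of -0.075 over 3051 genes, and 1.54% were at least 2-fold higher and 7.34% lower. In the middle class (19 to 27 CpG, 2662 genes) the median was 0.064, with 2.93% higher and 3.12% lower. In the class with the most (28 to 67 CpG, 2762 genes) the median was 0.19, with 3.87% higher and 2.43% lower. The typical signal of the CpG-poor genes was lower, at 117 against 162 in the others, and the 6 neutrophil and macrophage markers in the split, each past 2-fold lower, all fell in that class; their part in this order was not tested. Genes are not independent replicates, and no methylation was measured.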
